A study of Mus musculus with 2 samples.

Results

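The 31 genes described here make cholesterol and fatty acids or regulate that synthesis. The list follows gene function and sets no threshold on measured values, but it was drawn up with earlier results of these data known. All 31 were found among the 27998 genes of the deposited matrices. By role, 8 belong to the mevalonate arm, 3 to the squalene and lanosterol steps, 8 to the steps from lanosterol to cholesterol, 4 to regulators and sterol transfer, and 8 to fatty acid synthesis. The first 19 are called sterol enzymes below, a set that includes Ggps1, whose product is not used for cholesterol.

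The study captured single cells of newborn (P0) C57BL/6 mice with the 10x Genomics Chromium system, from tissue that the labels call telencephalic and the methods call cerebral cortex. The first library came from mice that the labels call WT and the paper also calls STINGfl/fl. The other came from animals of genotype STINGf/f;Nestin-Cre, called cKO, in which a Cre that is active in the neural lineage removes floxed STING. The number of animals behind each library is not given. With 1 library in each group no test was possible and no value has a replicate check. Intervals below cover counting error only or, for shares of cells, the sampling of cells within 1 library. None covers the spread between animals.

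Cholesterol is built from acetyl-CoA through mevalonate and isoprenoid units, which are joined to squalene, closed to lanosterol and trimmed to cholesterol. Little of it crosses into the brain from blood, so neural cells make their own, and astrocytes are known as a main source for neurons after birth. SREBP transcription factors, the products of Srebf1 and Srebf2, switch on most of these genes when membrane sterol is low, and INSIG1 holds them back in the endoplasmic reticulum when it is high.

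The matrices held 10715 WT barcodes with 69554624 UMIs (unique molecular identifiers, 1 for each captured RNA molecule) and 9198 cKO barcodes with 67448785 UMIs. After filters 6566 WT cells (median 6537 UMIs) and 5929 cKO cells (median 7515 UMIs) were kept, and 19 barcodes were shared between the libraries. Cells were sorted into 10 groups by how many genes of a marker list they expressed, and 756 WT and 892 cKO cells fell into no group. Tmem173, the gene of STING, had 126 UMIs in the WT and 18 in the cKO library. Xist had 10 WT and 70388 cKO UMIs, while 4 Y-linked genes had 9701 and 6, so the libraries differ in the sex of their animals as well as in genotype and the effects of both cannot be told apart. Ebp and Nsdhl lie on the X chromosome. A level below is given as CPM, the UMIs of a gene for each 1000000 UMIs of its cell group. A ratio between libraries is log2 of cKO over WT minus the same value of the median gene of the group. That median gene was at -0.16 in projection neuron-like cells and within 0.1 of 0 in each of the other 9 groups.

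Promoter sequences of RefSeq (build GRCm38.p6) were available for 24 of the 31 genes (not Fdps, Fdft1, Sqle, Stard4, Scd1, Scd2 and Fads1), each 300 bases from 250 before to 50 after a transcription start. Most sterol enzymes differed in 1 direction between these libraries, so promoters of 4 that were lower in cKO (Hmgcs1, Mvk, Nsdhl and Ebp) are shown beside those of Ggps1 and Insig1, which were higher in several cell groups. They run 5′ to 3′ on the coding strand and lie at chr13:119690101-119690400 (plus strand), chr5:114444019-114444318 (plus strand), chrX:72918271-72918570 (plus strand), chrX:8193463-8193762 (minus strand), chr13:14063439-14063738 (minus strand) and chr5:28071162-28071461 (plus strand). Capitals mark CCAAT, the box bound by NF-Y, on either strand, and TCACNCCAC, a sequence like an SREBP site, on either strand.
Hmgcs1: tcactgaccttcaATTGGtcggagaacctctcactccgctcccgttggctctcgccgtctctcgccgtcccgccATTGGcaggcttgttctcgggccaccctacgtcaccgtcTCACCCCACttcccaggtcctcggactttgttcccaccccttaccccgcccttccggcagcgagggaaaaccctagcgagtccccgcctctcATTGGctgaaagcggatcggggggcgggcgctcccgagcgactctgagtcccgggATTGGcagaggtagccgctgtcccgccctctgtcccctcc
Mvk: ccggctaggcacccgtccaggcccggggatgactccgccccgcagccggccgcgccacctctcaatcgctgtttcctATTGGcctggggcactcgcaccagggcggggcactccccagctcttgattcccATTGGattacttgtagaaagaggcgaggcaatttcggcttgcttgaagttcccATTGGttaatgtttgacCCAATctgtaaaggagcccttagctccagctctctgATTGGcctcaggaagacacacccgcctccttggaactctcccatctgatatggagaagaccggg
Nsdhl: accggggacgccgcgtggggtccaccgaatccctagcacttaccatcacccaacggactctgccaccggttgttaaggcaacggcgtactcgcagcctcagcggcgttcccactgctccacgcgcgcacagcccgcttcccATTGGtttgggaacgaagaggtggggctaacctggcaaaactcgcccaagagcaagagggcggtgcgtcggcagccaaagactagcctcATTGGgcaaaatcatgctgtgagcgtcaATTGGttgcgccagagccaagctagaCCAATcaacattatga
Ebp: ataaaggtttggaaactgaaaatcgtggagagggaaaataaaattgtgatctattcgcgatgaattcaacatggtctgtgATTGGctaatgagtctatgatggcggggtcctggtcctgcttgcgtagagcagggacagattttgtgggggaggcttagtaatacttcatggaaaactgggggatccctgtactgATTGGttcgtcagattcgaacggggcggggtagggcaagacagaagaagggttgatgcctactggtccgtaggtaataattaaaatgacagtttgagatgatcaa
Ggps1: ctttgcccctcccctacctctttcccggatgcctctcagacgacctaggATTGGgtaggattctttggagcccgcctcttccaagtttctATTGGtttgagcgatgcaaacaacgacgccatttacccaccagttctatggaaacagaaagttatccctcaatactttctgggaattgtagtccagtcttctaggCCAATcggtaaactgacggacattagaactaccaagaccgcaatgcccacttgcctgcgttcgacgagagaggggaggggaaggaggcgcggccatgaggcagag
Insig1: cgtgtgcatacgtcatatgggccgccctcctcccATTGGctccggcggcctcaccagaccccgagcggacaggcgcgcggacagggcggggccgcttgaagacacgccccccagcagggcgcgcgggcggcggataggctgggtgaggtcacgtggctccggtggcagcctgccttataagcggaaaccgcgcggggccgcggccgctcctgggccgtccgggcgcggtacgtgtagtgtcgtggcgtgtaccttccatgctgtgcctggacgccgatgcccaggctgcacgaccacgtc
The SREBP-like sequence TCACNCCAC stood in 1 of the 24 genes, Hmgcs1, where it lay before the transcription start. It stood in 1.44% of all 27025 genes with a promoter. Only exact matches were counted, so SREBP sites with other letters would be missed. CCAAT stood in 20 of the 24 genes (83.3%) and in 15 of 16 sterol enzymes, against 41.1% of all genes. GGGCGG, the GC box, stood in 19 of the 24 genes against 38.2% of all, and CACGTG, the E-box, in 4 against 8.09%. Of the genes shown, Mvk holds 5 CCAAT boxes, Hmgcs1 and Nsdhl 4 each, Ggps1 3, Ebp 2 and Insig1 1. These are matches of letters in a short window and not measured binding.

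The summed sterol enzymes were highest in astrocyte-like cells of both libraries, and in every cell group but the ependymal-like cells the cKO level lay below WT beyond counting error. In WT they made up 3631 CPM (95% interval 3569 to 3693) in astrocyte-like cells and 2561 CPM (2541 to 2581) in projection neuron-like cells, followed by 2102 in oligodendrocyte precursor-like (OPC-like) and 2068 in radial glia-like cells, whose intervals overlapped. Interneuron-like cells held 1379, ependymal-like 1352 and cycling precursor-like 1256 CPM, with overlapping intervals between neighbours, and intermediate progenitor-like cells 1041. Vascular-like cells (668 CPM) and microglia-like cells (626 CPM) were lowest and did not differ beyond counting error.

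In the cKO library the order changed. Astrocyte-like cells were still first with 2293 CPM (2237 to 2350), but projection neuron-like cells, the second in WT, stood sixth with 907 CPM (896 to 918). The second place in WT holds for pooled UMIs. After thinning every cell to 2000 UMIs, projection neuron-like cells had a WT mean of 4.23 UMIs. This lay below astrocyte-like cells (7.40) and close to OPC-like (4.54) and radial glia-like cells (4.47). The means have no interval, so the order of these close groups is not settled. In cKO projection neuron-like cells were again the sixth (1.49). Radial glia-like cells (1443 CPM), ependymal-like cells (1224), OPC-like cells (979) and cycling precursor-like cells (973) now stood above them. Astrocyte-like cells held 1.42 times the level of projection neuron-like cells in WT and 2.53 times in cKO. Relative to the median gene, the cKO level was 39.7% of WT in projection neuron-like cells (log2 -1.33, interval -1.35 to -1.31) and 45.1% in interneuron-like cells (-1.15, -1.20 to -1.10). It was 65.8% in astrocyte-like (-0.60, -0.65 to -0.56), 69.7% in radial glia-like (-0.52) and 77.2% in cycling precursor-like cells (-0.37). The difference in ependymal-like cells was -0.12 with an interval from -0.29 to 0.05, from 56 WT and 21 cKO cells. Intermediate progenitor-like cells stood at 55.8% and OPC-like cells at 47.3%. The cKO share of the WT level was thus lower in both neuron-like groups than in astrocyte-like, radial glia-like and cycling precursor-like cells, with intervals that did not overlap. This was not particular to neuron-like cells. Intervals of OPC-like (-1.18 to -0.98) and microglia-like cells (49.7%, -1.30 to -0.73) overlapped that of interneuron-like cells. The interval of vascular-like cells (38.4%, -1.56 to -1.21) overlapped that of projection neuron-like cells. Whether these differences between cell groups exceed the spread between animals was not tested. The markers that define the groups were also lower in cKO in several of them. Summed projection neuron markers were at 4328 and 3234 CPM in projection neuron-like cells, maturing astrocyte markers at 2611 and 1874 in astrocyte-like cells, and OPC markers at 8415 and 6260 in OPC-like cells. Ependymal markers in ependymal-like cells, where the interval of the sterol difference held 0, were at 7468 and 4926 CPM. Endothelial markers in vascular-like cells were at 9088 and 8385 CPM, while microglia markers in microglia-like cells were higher in cKO (22207 and 23338). The part of these marker differences in those of the sterol sums was not tested.

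**Figure D1:**
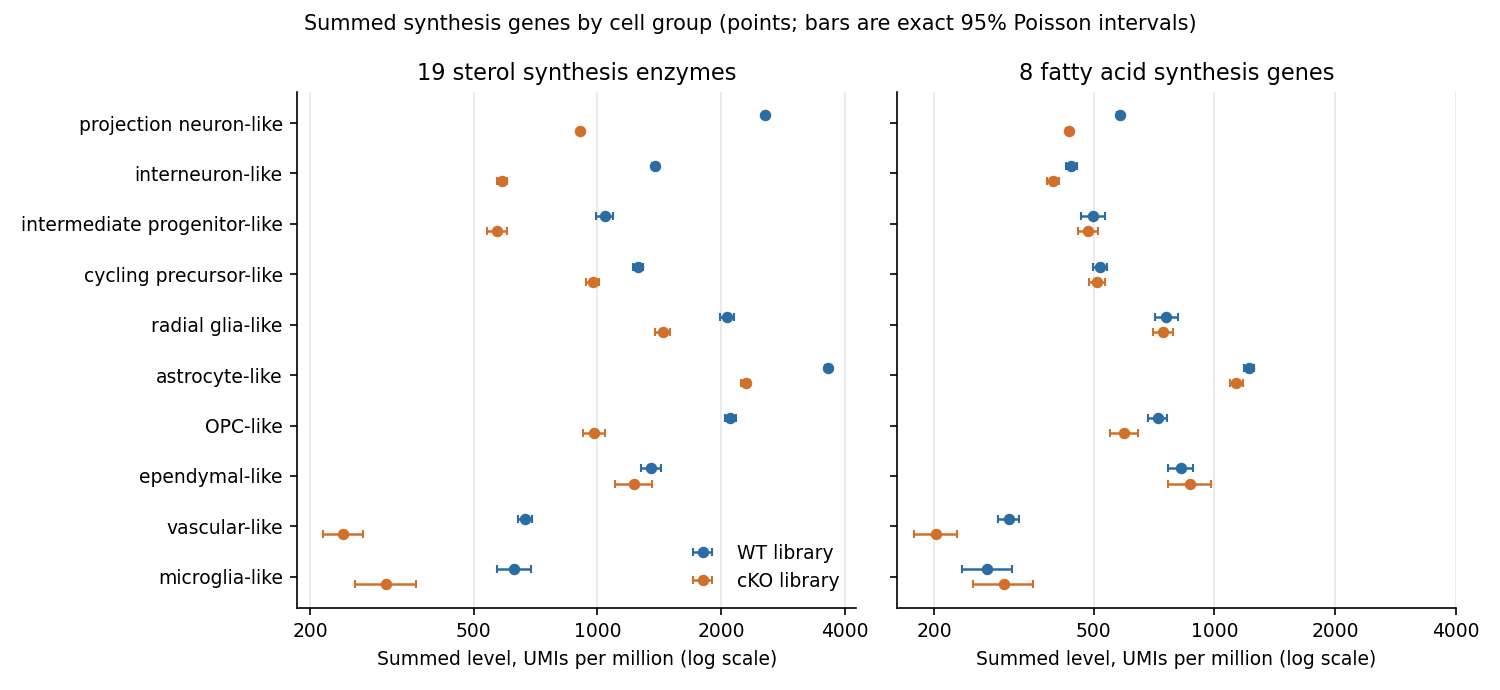
Summed level of the 19 sterol enzymes (left) and the 8 fatty acid synthesis genes (right) in CPM on a log axis, for 10 cell groups in the WT (blue) and cKO (orange) library, with exact 95% Poisson intervals as bars. Sterol enzymes in projection neuron-like cells sit at 2561 CPM in WT and 907 in cKO, while the fatty acid genes of astrocyte-like cells sit at 1219 and 1135.

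The fatty acid genes differed less between the libraries. Their sum in astrocyte-like cells was 1219 CPM in WT and 1135 in cKO (log2 -0.04, interval -0.11 to 0.02), and the intervals of intermediate progenitor-like, cycling precursor-like, radial glia-like, ependymal-like and microglia-like cells also held 0. It was lower in projection neuron-like cells (580 and 434 CPM, log2 -0.25), OPC-like cells (721 and 596, -0.25) and vascular-like cells (306 and 202, -0.51). In interneuron-like cells the difference was -0.07 (-0.14 to -0.00) and its sign changed with the way cells were averaged.

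RNA of neurons that is free in the droplets can add to the levels of other cells, and neuron markers in microglia-like and vascular-like cells are given for that reason. The summed pan-neuron markers in microglia-like cells stood at 5.97% (WT) and 5.86% (cKO) of their level in projection neuron-like cells, and in vascular-like cells at 5.54% and 3.44%. The summed projection neuron markers, which include Mef2c, a gene that microglia also express, stood at 20.5% and 18.96% in microglia-like cells and at 9.21% and 10.2% in vascular-like cells. The sterol enzymes of microglia-like cells stood at 0.244 and 0.338 times the projection neuron-like level and those of vascular-like cells at 0.261 and 0.265 times. The part of free RNA, including that of glial cells, in these levels was not tested. Vascular-like cells held 668 CPM in WT and 241 in cKO (log2 -1.38, -1.56 to -1.21), from 196 and 80 cells, an interval that overlaps that of projection neuron-like cells. A lower cKO level was seen in the cells with endothelial markers alone (688 and 239 CPM), with mural markers alone (1367 and 233) and with both sets (597 and 244). Mural markers alone rested on 27 WT and 22 cKO cells, with 29 sterol enzyme UMIs in cKO. The 68 WT and 19 cKO cells with both sets had median depths of 25658 and 26970 UMIs, against 9582 and 10675 with endothelial markers alone. Whether they are doublets was not tested. Microglia-like cells, 61 and 29, went from 626 to 307 CPM.

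To set cells of unequal depth side by side, every cell was thinned to 2000 UMIs, and shallower cells (78 WT and 58 cKO projection neuron-like cells) were left out. Projection neuron-like cells then held a mean of 4.23 sterol enzyme UMIs in WT and 1.49 in cKO. The share of cells with none was 6.94% (95% exact interval 5.95 to 8.03) of 2393 WT cells and 26.3% (24.6 to 28.1) of 2552 cKO cells. Those intervals take the cells of 1 library as independent, and cells are not replicates of a genotype. Astrocyte-like cells held 7.40 and 4.74, with 1.24% and 5.02% of cells at none. Cells with 5 or more were 39.9% of WT and 3.88% of cKO projection neuron-like cells, and 71.5% and 47.2% of astrocyte-like cells. The median projection neuron-like cell held 4 in WT and 1 in cKO, and the 90th percentile was 8 and 3. Microglia-like cells held means of 1.11 and 0.621, and 37.7% and 51.7% of them had none. Without thinning the means were 25.3 and 10.1 sterol enzyme UMIs in projection neuron-like cells (median depth 8286 and 8929.5 UMIs) and 27.5 and 21.5 in astrocyte-like cells.

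**Figure D2:**
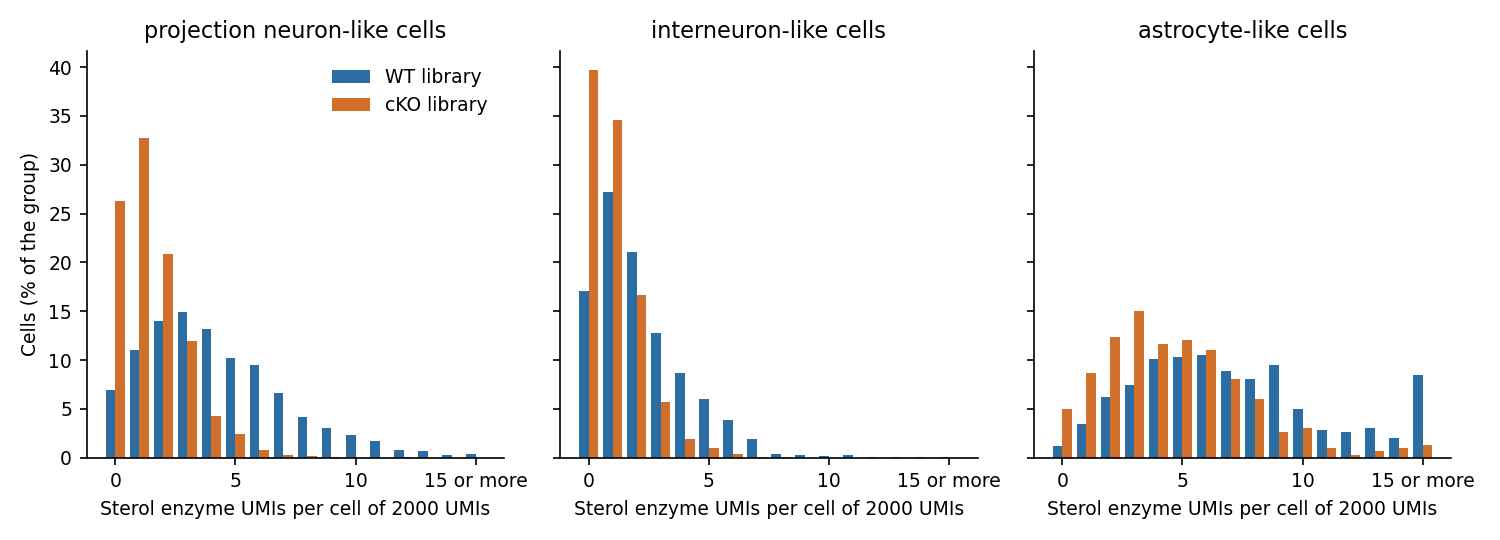
Sterol enzyme UMIs in single cells after thinning each cell to 2000 UMIs (horizontal) against the share of cells of the group in percent (vertical), for projection neuron-like, interneuron-like and astrocyte-like cells of WT (blue) and cKO (orange); the last bar holds 15 or more. Of projection neuron-like cells 6.94% in WT and 26.3% in cKO have none, and astrocyte-like cells reach further to the right in both libraries.

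Counted gene by gene, the members were lower in cKO far more often than other genes in neuron-like, OPC-like and vascular-like cells. The members were chosen with earlier results of these data known, so these counts describe the list and are no independent support. A gene was counted when it had at least 50 UMIs in the group over both libraries and differed at least 1.5-fold from the median gene. In projection neuron-like cells 22 of 31 members were lower and 2 higher, where 23.0% of all 12245 genes were lower and 18.1% higher. In interneuron-like cells 20 of 30 were lower and 2 higher (23.0% and 17.2% of all genes), in OPC-like cells 16 and 3 of 27 (20.2% and 14.7%), and in vascular-like cells 17 and 1 of 26 (22.4% and 18.4%). In astrocyte-like cells 14 of 31 were lower and 2 higher (18.9% and 13.8%), and in intermediate progenitor-like cells 11 and 4 of 24 (22.4% and 18.4%). The counts were nearer to the background in radial glia-like cells, with 9 lower and 3 higher of 26 (18.1% and 13.8%), and cycling precursor-like cells, with 9 and 4 of 31 (18.7% and 14.5%). Among the sterol enzymes alone they were 9 lower and 2 higher of 16 in radial glia-like cells, and 8 and 3 of 19 in cycling precursor-like cells. No fatty acid gene was past the fold in either group, of 7 and 8 with enough UMIs. Ependymal-like cells had 3 of 16 lower and 0 higher, near their background of 20.2% and 14.0%, and only 6 members reached the minimum in microglia-like cells, 2 of them lower (16.5% and 14.1%). The median member stood at -1.15 in projection neuron-like cells and -0.47 in astrocyte-like cells. Since these shares of all genes are large, a single member past the fold is close to the background of these libraries.

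**Figure D3:**
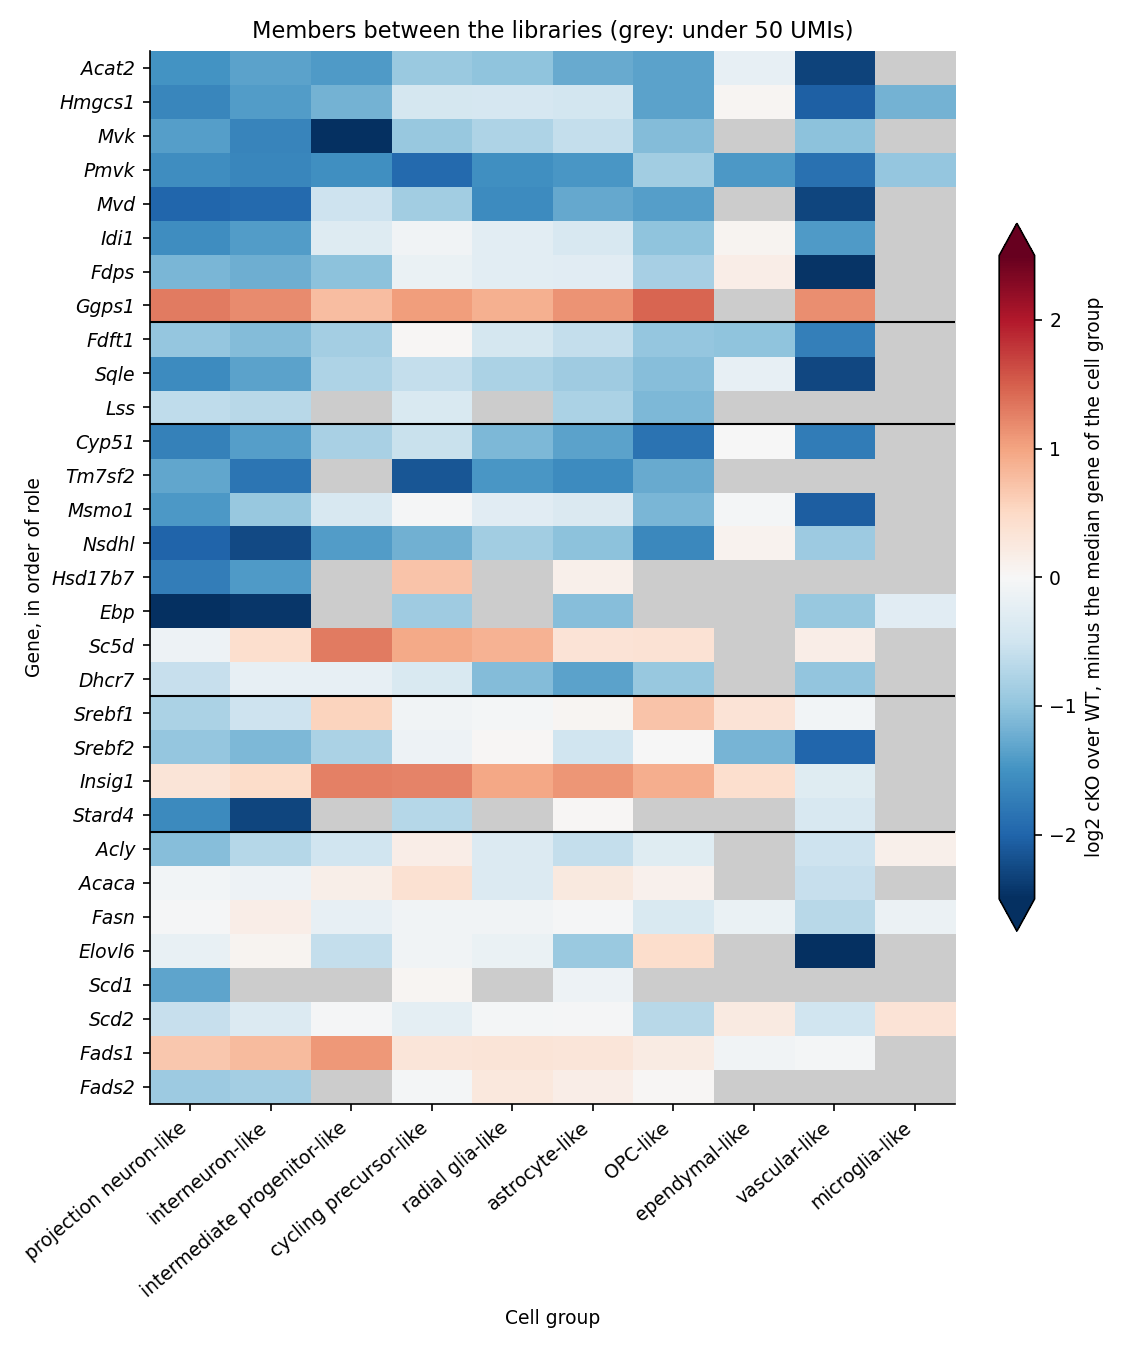
Log2 ratio of cKO over WT, minus the median gene of the cell group, for the 31 members in order of role (rows) in 10 cell groups (columns); blue is lower and red higher in cKO, and grey marks fewer than 50 UMIs. Blue fills most of the sterol rows in neuron-like, OPC-like and vascular-like cells, Ggps1 is red in all 8 groups with enough UMIs, and the fatty acid rows at the bottom are mostly pale.

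Within the mevalonate arm 7 of 8 genes were lower and 1 higher in projection neuron-like cells (23.0% and 18.1% of all genes), with a median of -1.52. Hmgcs1, which makes HMG-CoA, lies at chr13:119690379-119708260 (GENCODE M21, GRCm38). It was at 706 CPM (695 to 716) in WT and 203 (198 to 208) in cKO projection neuron-like cells, a log2 ratio of -1.63 (-1.68 to -1.59). In astrocyte-like cells it was at 919 and 637 CPM, a ratio of -0.47 (-0.55 to -0.39). In vascular-like cells it was at 90.3 and 20.6 CPM, from 336 and 26 UMIs, and in ependymal-like cells at 351 and 356. Astrocyte-like cells thus held 1.30 times the projection neuron-like level in WT and 3.14 times in cKO. The exons of Hmgcs1 share 557 bases with Gm48342, an antisense gene on the opposite strand.

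Idi1, the isomerase that supplies the active isoprene unit, went from 104 to 31.7 CPM in projection neuron-like cells (-1.55) but from 299 to 218 in astrocyte-like (-0.39) and from 94.2 to 89.4 in cycling precursor-like cells (-0.08). Fdps, which joins isoprene units to farnesyl diphosphate, went from 376 to 151 CPM (-1.15) and in astrocyte-like cells from 301 to 236 (-0.29). The exons of Fdps share 1124 bases with Gm43738 on the same strand, which had 0 UMIs in projection neuron-like cells of both libraries and 0 and 1 in astrocyte-like cells. A processed pseudogene matches Idi1 over 684 bases at 100% identity, so its reads can be hard to place.

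Other genes of the arm were lower across nearly all groups. Pmvk, the second of the mevalonate kinases, was lower in 10 of 10 groups, with ratios from -1.94 in cycling precursor-like to -0.87 in OPC-like cells. Mvk, the first of them, was lower in 8 of 8 groups with enough UMIs, and its ratio was lowest in intermediate progenitor-like cells (29.7 and 4.77 CPM, from 48 and 11 UMIs). Acat2, the thiolase that starts the arm, was lower in 8 of 9 groups, and Mvd, the decarboxylase, in 7 of 8. Acat2 shares 97.7% of 1477 aligned bases with Acat3, so reads of the pair can be hard to place. Acat3 itself had 4 and 5 UMIs in projection neuron-like cells, where Acat2 was at 283 and 89.3 CPM, and 38 and 14 UMIs in astrocyte-like cells (10.3 and 4.99 CPM, -0.99). Tcp1, which matches Acat2 over 445 bases, was at 356 and 388 CPM in projection neuron-like cells (0.29).

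Ggps1 went the other way. It makes geranylgeranyl diphosphate, which anchors small GTPases to membranes. Without it the summed sterol enzymes differed by -1.40 in projection neuron-like and -1.27 in interneuron-like cells, in place of -1.33 and -1.15. It was at 23.7 CPM (21.8 to 25.7) in WT and 52.1 (49.5 to 54.8) in cKO projection neuron-like cells, a ratio of 1.30, and was higher in 8 of 8 groups, from 0.77 to 1.45. Its exons overlap 257 bases of Arid4b on the opposite strand, and Arid4b was also higher in projection neuron-like cells (106 and 166 CPM, 0.81). Whether counting used the strand is not given in the sources used here. A processed pseudogene, Gm5630, matches Ggps1 over 903 bases at 97.2% identity.

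The 3 genes of the squalene and lanosterol steps were each lower in projection neuron-like, interneuron-like, astrocyte-like and OPC-like cells, where 23.0%, 23.0%, 18.9% and 20.2% of all genes were lower. Sqle, squalene epoxidase, went from 204 to 61.4 CPM in projection neuron-like cells (-1.57) and from 269 to 140 in astrocyte-like cells (-0.88). Fdft1, squalene synthase, the first step committed to sterols, went from 209 to 96.0 (-0.96) and from 219 to 139 (-0.60), and in cycling precursor-like cells from 96.9 to 98.6 (0.02). Its exons share 774 bases with Ctsb on the opposite strand, which was at 117 and 178 CPM in projection neuron-like cells (0.77). A processed pseudogene, Gm6781, matches Fdft1 over 1249 bases at 97.4% identity. Lss, which closes the ring, was at 19.3 and 11.0 CPM in projection neuron-like cells (-0.64) and 32.3 and 17.8 in astrocyte-like cells (-0.80).

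Of the 8 genes from lanosterol to cholesterol, 6 were lower and none higher in projection neuron-like cells (median -1.56), where 23.0% of all genes were lower and 18.1% higher, and 5 were lower in astrocyte-like cells (-1.04), where 18.9% of all genes were lower. Cyp51, the lanosterol demethylase, went from 147 to 40.8 CPM in projection neuron-like cells (-1.68) and from 252 to 95.8 in astrocyte-like cells (-1.34), so that this enzyme was lower in both groups. Its exons share 166 bases with Akap9 on the opposite strand, and Akap9 was at 378 and 235 CPM in projection neuron-like cells (-0.52). Msmo1, the C4 methyl oxidase, went from 109 to 36.2 (-1.43) and from 426 to 317 in astrocyte-like cells (-0.37). Stretches of 107 to 203 bases of Msmo1 match 62 other genes. Tm7sf2, the C14 sterol reductase, was lower in 6 of 6 groups, and its exons share 532 bases with Vps51 on the same strand. Vps51 itself stood at 18.5 and 17.2 CPM in projection neuron-like cells (0.05).

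The X-linked Ebp and Nsdhl were, with Mvd, the 3 members with the lowest ratios in projection neuron-like cells. Ebp, the sterol isomerase, was at 15.5 CPM (14.0 to 17.2) in WT and 1.62 (1.19 to 2.16) in cKO, from 378 and 47 UMIs, a ratio of -3.09. It was at 21.6 and 3.80 CPM in interneuron-like cells, 53.5 and 26.1 in vascular-like cells (-0.94), and 90.5 (69.5 to 116) and 73.3 (50.5 to 103) in microglia-like cells, where the intervals overlapped. Among the 10 groups, Ebp was highest in microglia-like cells in both libraries, where the summed sterol enzymes were among the lowest. Nsdhl, the C4 decarboxylase, was at 56.3 and 12.6 CPM in projection neuron-like cells (-1.99) and at 125 and 59.5 in astrocyte-like cells (-1.02). The 415 X-linked genes tested in projection neuron-like cells had a median ratio of -0.01, with 19.5% lower and 13.3% higher.

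The last steps differed between cell groups. Sc5d, the C5 desaturase, was not past the fold in projection neuron-like (35.5 and 29.1 CPM, -0.12) or astrocyte-like cells (78.7 and 95.4, 0.34) and was higher in intermediate progenitor-like (17.3 and 42.1, 1.31), cycling precursor-like (22.2 and 42.8, 0.94) and radial glia-like cells (40.2 and 73.9, 0.88). Dhcr7, the last reductase, differed most in astrocyte-like cells (86.6 and 32.8 CPM, -1.34) and less in projection neuron-like cells (35.7 and 21.5, -0.57). Hsd17b7, a C3 ketone reductase, was lower in projection neuron-like cells (20.4 and 5.48 CPM, -1.73) and higher in cycling precursor-like cells (12.7 and 20.8, 0.71).

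**Figure D4:**
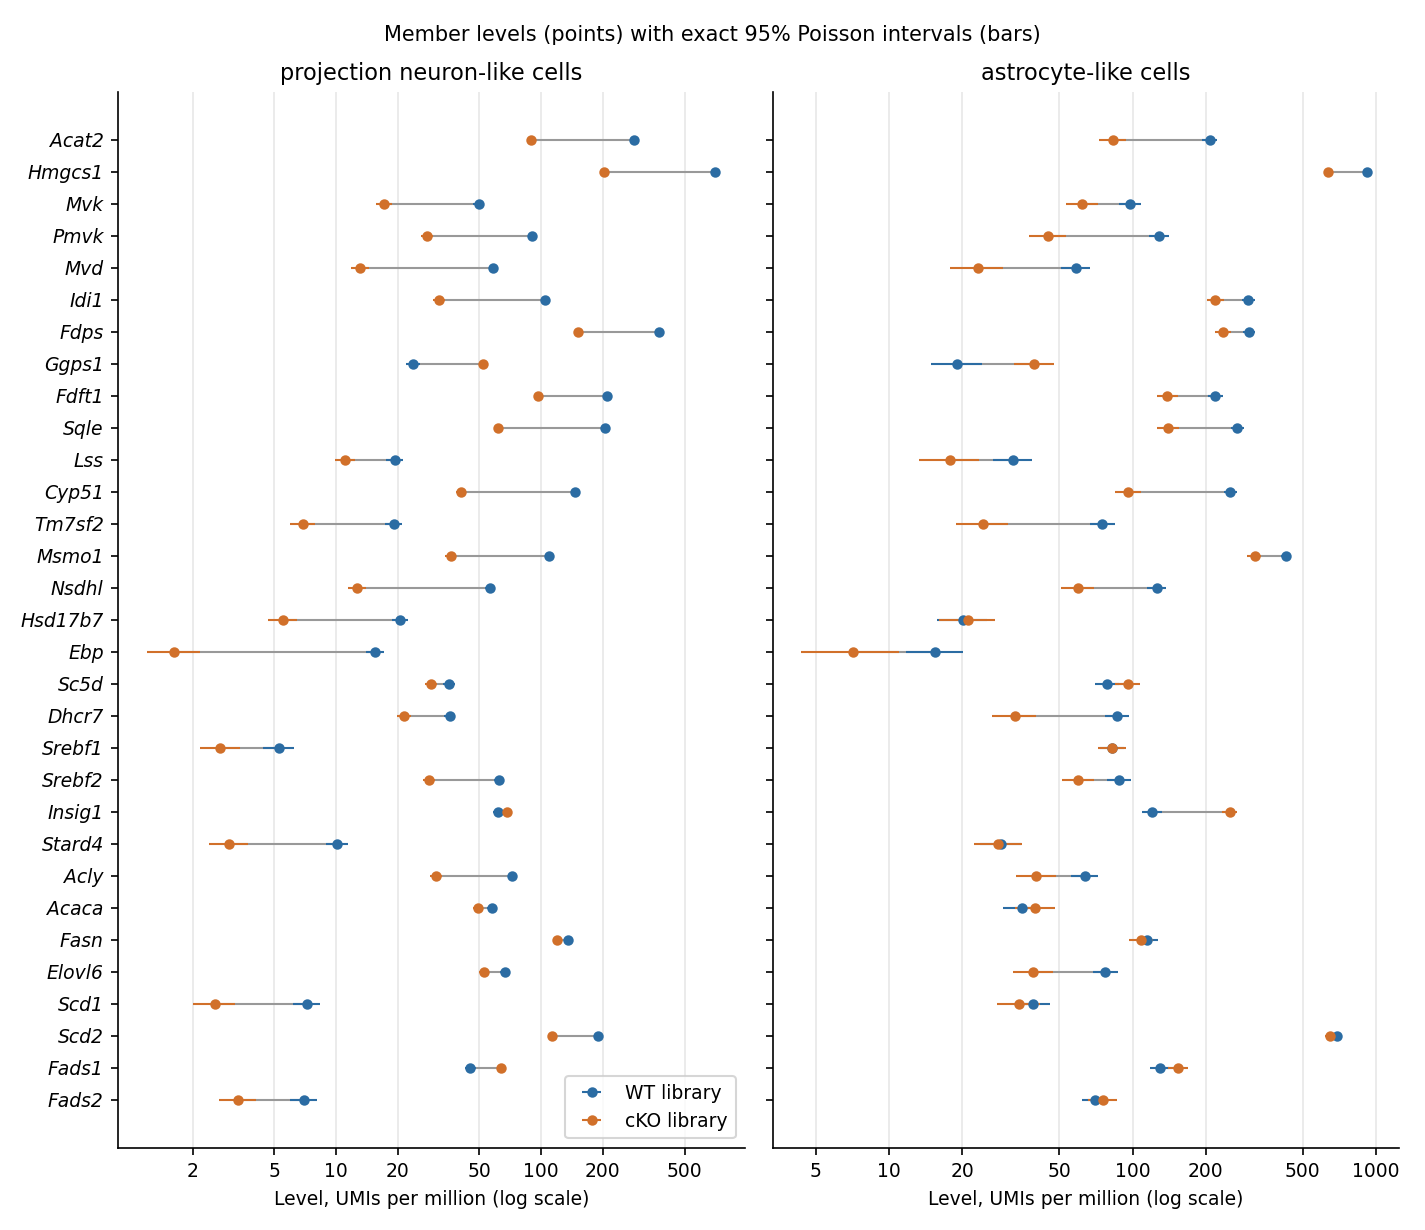
Level of each member in CPM on a log axis, in projection neuron-like (left) and astrocyte-like cells (right), for WT (blue) and cKO (orange) with exact 95% Poisson intervals; grey lines join the libraries. Hmgcs1 goes from 706 to 203 CPM on the left and from 919 to 637 on the right, and Insig1 from 121 to 250 on the right.

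Among the regulators, Srebf2 was lower in 5 of 9 groups and its feedback partner Insig1 higher in 5 of 9. Srebf2, the SREBP that serves sterol genes, was lower in projection neuron-like (62.0 and 28.4 CPM, -0.96), interneuron-like (48.5 and 20.9, -1.13), intermediate progenitor-like (-0.78), ependymal-like (-1.16) and vascular-like cells (-1.97, from 148 and 12 UMIs). It was at 69.7 and 68.6 CPM in OPC-like cells and at 57.7 and 59.1 in radial glia-like cells. Insig1 lies at chr5:28071363-28078662. It was higher in intermediate progenitor-like (30.3 and 71.6 CPM, 1.27), cycling precursor-like (59.5 and 142, 1.25), astrocyte-like (121 and 250, 1.11), radial glia-like (98.7 and 192, 0.96) and OPC-like cells (79.6 and 147, 0.90). In projection neuron-like cells it was at 61.6 and 68.3 CPM, a ratio of 0.31 (0.22 to 0.41).

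Srebf1, which serves fatty acid genes, was higher in glial than in neuron-like groups. It was at 82.5 and 82.3 CPM in astrocyte-like, 72.1 and 89.1 in ependymal-like and 55.9 and 54.0 in radial glia-like cells, against 5.25 and 2.73 in projection neuron-like cells. Stard4, which carries cholesterol between membranes, was highest in vascular-like cells (64.2 and 46.0 CPM). It was lower in cKO projection neuron-like cells (10.1 and 3.00, -1.59) and interneuron-like cells (8.54 and 1.65, -2.29), and equal in astrocyte-like cells within counting error (28.8 and 28.1).

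Of the fatty acid genes in projection neuron-like cells 3 of 8 were lower and 1 higher, against 23.0% and 18.1% of all genes. Fasn, fatty acid synthase, was at 136 and 119 CPM there (-0.02) and at 115 and 108 in astrocyte-like cells (-0.03). It was past the fold in 1 of 10 groups, vascular-like cells (23.1 and 13.5 CPM, from 86 and 17 UMIs, -0.69), where its interval of -1.53 to 0.07 held 0. Acaca, acetyl-CoA carboxylase, was at 57.6 and 49.1 CPM (-0.07) and 35.3 and 39.9 (0.24), and was past the fold in none of 8 groups. Acaca has a processed pseudogene with 99.2% identity over 6118 bases, and Scd2 shares 95.5% over 623 bases with Scd1.

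Acly, which supplies cytosolic acetyl-CoA to both pathways, was lower in projection neuron-like (72.0 and 30.7 CPM, -1.06), interneuron-like (79.1 and 45.6, -0.71) and astrocyte-like cells (63.5 and 40.2, -0.60). Elovl6, an elongase, was lower in vascular-like cells (15.9 and 2.38 CPM, from 59 and 3 UMIs, -2.65), astrocyte-like cells (77.4 and 39.2, -0.92) and intermediate progenitor-like cells (54.5 and 35.6, -0.59), and at 95.2 and 127 CPM in OPC-like cells (0.44).

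The desaturases were higher in astrocyte-like than in neuron-like cells. Scd2 was at 689 and 644 CPM in astrocyte-like and 568 and 653 in ependymal-like cells, against 189 and 113 in projection neuron-like cells (-0.58). Scd1 was at 38.8 and 34.2 CPM in astrocyte-like cells and 7.18 and 2.55 in projection neuron-like cells (-1.33). Fads1, which desaturates polyunsaturated chains, was higher in cKO projection neuron-like (45.1 and 64.0, 0.67), interneuron-like (48.2 and 78.7, 0.79) and intermediate progenitor-like cells (53.2 and 111, 1.09). Its neighbour Fads2 was lower in projection neuron-like cells (6.97 and 3.31, -0.91) and at 70.3 and 75.5 CPM in astrocyte-like cells.

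Against projection neuron-like cells, 11 of 31 members were at least 2-fold higher in astrocyte-like cells of both libraries and none were lower, where 17.4% of all genes were higher and 15.7% lower. The 11 were Idi1, Tm7sf2, Msmo1, Nsdhl, Sc5d, Srebf1, Stard4, Scd1, Scd2, Fads1 and Fads2. Of these, Srebf1 (15.7-fold in WT, 30.2-fold in cKO) and Fads2 (10.1-fold and 22.8-fold) differed most. They include 4 of 8 genes from lanosterol to cholesterol and 1 of 8 of the mevalonate arm. OPC-like cells were 2-fold higher for 3 members, Srebf1, Scd1 and Fads2, and lower for none (13.5% and 8.32% of all genes). Interneuron-like cells were lower for 3, Hmgcs1, Mvd and Scd1, and higher for none (3.94% lower and 3.45% higher). Vascular-like cells were lower for 16 of 31 and higher for 3 (22.0% and 17.0%). Those 3 were Ebp, Srebf1 and Stard4, with Stard4 6.34-fold higher in WT and 15.3-fold in cKO. Fewer transcripts in a cell and more RNA of other genes cannot be told apart on this scale.

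Other genes of the same pathway were also counted. Erg28, planned for the list of other sterol and SREBP genes, was left out because the matrices hold it as 0610007P14Rik. Of 14 other sterol and SREBP genes 4 were lower and 2 higher in projection neuron-like cells, with a median of -0.02, where 23.0% of all genes were lower and 18.1% higher. In OPC-like cells 4 of 11 were lower and 3 higher (20.2% and 14.7%), in vascular-like cells 4 and 2 of 12 (22.4% and 18.4%), in intermediate progenitor-like cells 4 and 1 of 10 (22.4% and 18.4%), and in astrocyte-like cells 3 and 2 of 13 (18.9% and 13.8%). Lpin1, an SREBP target, is 1 of the 2 that were higher in projection neuron-like cells (14.0 and 27.0 CPM, 1.11).

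Among 21 other fatty acid genes with enough UMIs in projection neuron-like cells 9 were lower and 3 higher (23.0% and 18.1% of all genes), led by Acsl4 (17.0 and 3.14 CPM, -2.27). In astrocyte-like cells 6 of 17 were lower and 2 higher (18.9% and 13.8%). Thrsp, a regulator of lipogenesis, was at 109 and 25.6 CPM (-2.03) there, and Acsl3, which activates long chains, at 87.4 and 197 (1.23). Of 15 genes for sterol efflux, storage and uptake 5 were lower and 3 higher in projection neuron-like cells, near the background of 23.0% and 18.1%. The sterol exporter Abcg1 was higher there (4.80 and 9.80 CPM, 1.19) and lower in vascular-like cells (64.0 and 20.6, -1.54), and the exporter Abca1 was at 233 and 83.2 CPM in vascular-like cells (-1.39). Of 5 myelin genes with enough UMIs 3 were lower and none higher in projection neuron-like cells, and of 9 dissociation response genes 1 was lower and 1 higher (23.0% and 18.1% of all genes). In vascular-like cells 5 of 9 dissociation response genes were higher and 1 lower (18.4% and 22.4%), and in interneuron-like cells 4 of 8 were higher (17.2%). Fatty acid oxidation genes had 4 lower and 1 higher of 6 in projection neuron-like cells and 3 and 2 of 11 in astrocyte-like cells (18.9% and 13.8% of all genes). These lists are short, and nothing is read from their counts.

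A list of glucocorticoid and fasting response genes was also counted. In astrocyte-like cells 8 of 9 were higher and none lower (13.8% and 18.9% of all genes), with a median of 1.16, Per1 at 22.3 and 170 CPM (2.99) and Cdkn1a at 3.80 and 56.6 (3.96). In vascular-like cells 9 of 11 were higher (18.4%) with a median of 2.32, and in projection neuron-like cells 3 of 11 were higher and 1 lower (18.1% and 23.0%), with a median of 0.24 and Arrdc4 at 34.4 and 241 CPM (2.98). Their part in the differences of the synthesis genes was not tested.

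Across the 20 points of 10 cell groups in 2 libraries, single members followed the sum of the other sterol enzymes to different degrees. Pearson's r of log2 (CPM + 1) was 0.97 for Hmgcs1, 0.94 for Cyp51 and 0.92 for Fdps, but -0.09 for Ggps1 and -0.23 for Ebp, and 0.79 for Fasn. Among genes counted in no list, those most like the sterol sum were 0610007P14Rik (r = 0.94), Carkd (0.93), Nipa1 (0.91), Tmem38a (0.90) and Pmm1 (0.90). The points share libraries, depth and cells, so r is a description only. 0610007P14Rik, which RefSeq also lists as Erg28, a scaffold of the C4 demethylation steps, was at 136 and 62.8 CPM in projection neuron-like and at 235 and 159 in astrocyte-like cells. Under the name Erg28 it was planned for the list of other sterol and SREBP genes, so it is a gene of this pathway that the counts missed.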

How the data were processed

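Single-cell RNA sequencing of 2 libraries of P0 mouse cortex, WT and STINGf/f;Nestin-Cre (cKO), was grouped by the genotype in the labels. The deposited matrices, 1 per library, hold raw UMI counts of each gene in each barcode, which the authors did not normalize. Their header names Cell Ranger 3.0.1, while the submitters' processing notes name Cell Ranger 2, STAR, Seurat and the build mm9, so the build behind the counts is not settled, and the annotation and the use of strand are not given in the sources used here. A combined matrix, dense copies of the counts, per-barcode totals and the authors' cluster comparisons (fold changes and p-values) were not used.

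A cell needed 500 detected genes and no more than 10% mitochondrial UMIs to be retained. Scrublet (scanpy 1.11.5) scores above 0.2 were left out as doublets, 200 WT and 151 cKO cells, a threshold set after seeing that the automatic one called 165 and 0. A cell entered a group when it expressed a minimum number of genes of a marker list (3 to 6), minimums that were chosen after the marker counts were seen. The suffix -like is used since a name rests on these markers alone. Cells at the minimum made up 10.2% of WT and 14.1% of cKO projection neuron-like cells, 24.9% and 40.0% of astrocyte-like cells, and 56.9% and 49.6% of intermediate progenitor-like cells, the highest shares among the groups checked (not vascular-like cells). UMIs were summed per group and library and given as CPM with exact 95% Poisson intervals. Intervals of ratios were exact and conditional on the summed UMIs, and those of shares of cells were Clopper-Pearson intervals. Ratios were centred on the median of all genes with at least 50 UMIs in the group over both libraries, and a count of 0 was set to 3 counts. The calculation was tested on simulated counts. No test was possible without replicate libraries.

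All 31 members are described. Of the other lists the text names at most 3 genes per list and cell group past 1.5-fold between libraries. It also names 5 genes counted in no list, those with the highest r with the sterol sum among genes with at least 500 UMIs. Genes that overlap or copy a member were named after their values were seen. Some genes of the other lists are not reported here. The members and lists were chosen with earlier results of these data known. Coordinates and overlaps are from GENCODE M21 (GRCm38), promoters from RefSeq (GRCm38.p6), and BLAST 2.17.0 was used to find transcripts that match a member at 95% identity for 100 bases or more. Alternatives were no or a stricter cell filter, no doublet removal, 1 more marker, means of cell CPM, other totals, thinning to 2000 UMIs, other centring including TMM factors (edgeR 4.0.16, R 4.3.3), other minimums and folds, and the sum without Hmgcs1. The sum without Ggps1 was added after seeing the data.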

Additional observations from a re-analysis of the deposited data

Results flagged for a closer look

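Of the 31 members, 2 lay past 1.5-fold in opposite directions in different cell groups, as did 7.45% of the 10244 genes tested in at least 3 groups, so their number is near that of genes in general. Hsd17b7 was lower in cKO in projection neuron-like cells (log2 -1.73) and interneuron-like cells (-1.41), and higher in cycling precursor-like cells (0.71, interval 0.19 to 1.24). Srebf1 was lower in projection neuron-like cells (-0.78, -1.21 to -0.37) and higher in OPC-like cells (0.72), where its interval held 0 and it rested on 32 WT and 28 cKO UMIs. With 1 library per genotype the difference between cell groups was not tested, and the intervals cover counting error only.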

How the results depend on the processing

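No paired analysis was possible because each genotype has 1 library, and for the same reason no replicate could be left out. The lower sterol enzyme sum of cKO kept its direction in projection neuron-like, interneuron-like and astrocyte-like cells under every alternative that was run. Against the reported log2 ratios of -1.33, -1.15 and -0.60, the stricter cell filter gave -1.52, -1.23 and -0.65, no centring -1.50, -1.23 and -0.66, a minimum of 200 UMIs -1.38, -1.22 and -0.68, and the sum without Hmgcs1 -1.23, -1.09 and -0.65. Without Ggps1, an alternative chosen after seeing the data, it was -1.40, -1.27 and -0.62. In projection neuron-like cells thinning gave -1.41 and no minimum -1.25. TMM factors gave -1.09 in interneuron-like cells, and keeping doublets gave -0.67 in astrocyte-like cells. The fatty acid sum was less stable. In projection neuron-like cells (-0.25) it was -0.30 without a cell filter and with a minimum of 200 UMIs, -0.42 without centring, -0.19 after thinning, and -0.17 as a mean of cell CPM or without a minimum. In interneuron-like cells (-0.07) it turned to 0.066 as a mean of cell CPM and 0.027 after thinning, and was -0.17 with the stricter filter, -0.15 without centring and -0.14 with a minimum of 200 UMIs, the last of which gave -0.12 in astrocyte-like cells. The cause of these shifts was not tested.

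The log2 level of sterol enzymes in astrocyte-like over projection neuron-like cells was 0.50 in WT and 1.34 in cKO. It was 0.46 in WT with the stricter filter, 0.47 and 1.25 with doublets kept, 0.53 and 1.40 with 1 more marker, 0.79 and 1.65 as a mean of cell CPM, 0.44 and 1.27 without mitochondrial, ribosomal protein and haemoglobin genes, 0.81 and 1.67 after thinning, 0.55 and 1.23 without Hmgcs1, and 1.40 in cKO without Ggps1. In vascular-like over projection neuron-like cells it was -1.94 and -1.91. It was -1.61 in cKO with the stricter filter, -1.87 in WT with doublets kept, -1.57 and -1.65 as a mean of cell CPM, -1.62 and -1.39 after thinning, and -1.68 in both without Hmgcs1. Members lower in cKO astrocyte-like cells were 8 of 31 at 2-fold (8.54% of all genes) in place of 14 at 1.5-fold (18.9%). Members lower in vascular-like than projection neuron-like cells were 10 of 23 after thinning (16.4% of all genes), which leaves fewer genes tested, in place of 16 of 31 (22.0%). Of 1206 member ratios in 4 groups under the alternatives, 24 passed the 1.5-fold limit anew and 24 lost it. Among ratios past the limit as reported, 1 changed sign: Fasn in vascular-like cells was 0.19 as a mean of cell CPM in place of -0.69. Sign changes of ratios within the limit were not counted. Depth limits members with few UMIs in the smaller groups, such as Lss, which reached the minimum of 50 UMIs in 5 of 10 groups.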
